A study of Mus musculus with 6 samples.

Results

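The matrix metalloproteinases (MMP), the ADAM and ADAMTS proteases, the ADAMTS-like proteins (ADAMTSL) and the tissue inhibitors of metalloproteinases (TIMP) were examined in KP2 cells, a pancreatic cancer line derived from a KPC mouse on the C57BL/6J strain, at fewer than 10 passages after its derivation. Members were all protein-coding genes with an Mmp, Adam, Adamts, Adamtsl or Timp symbol followed by a number, which gave 83 of the 41388 genes counted: 33 ADAM, 22 MMP, 19 ADAMTS, 5 ADAMTSL and 4 TIMP genes. RNA-seq had been run on 3 groups of 2 libraries. The first group was IRAK4 KO cells with rescue (called rescue here), the second was IRAK4 KO cells (KO), made by infection with lentiviral CRISPR vectors that carried guides against IRAK4, and the third was wild-type cells. The labels do not describe the rescue construct, whether the KO line is a clone or a pool, or any vector in the wild-type cells. Nor do they say whether the libraries of a group were grown separately; the p-values therefore reflect library-to-library spread that could be technical. All groups were cultured alike, and no agent was added per the labels.

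Total counts were 7836296 and 7605328 for the rescue, 11505983 and 8325604 for the KO, and 8880121 and 10615611 for wild type. Levels are given as normalised CPM, the count scaled to library size after TMM (trimmed mean of M-values) normalisation. Irak4, the targeted kinase, which carries signals from interleukin-1 and Toll-like receptors, was at 492 and 211 normalised CPM in the rescue libraries, 20.4 and 21.8 in the KO and 37.9 and 37.6 in wild type. The KO transcript level was below both wild-type libraries without passing the test (log2 fold change -0.84, SE 0.33, edgeR adjusted p = 0.057), and the rescue libraries were far above the other groups and differed from each other. A transcript level does not measure the protein lost after a CRISPR edit. Replicate spread was also largest in the rescue, with a biological coefficient of variation of 10.5%, against 6.08% in the KO and 5.07% in wild type. Krt8, Krt18 and Krt19, epithelial keratins, were abundant in every library, while the epithelial marker Epcam had 1 count in total. Summed normalised CPM of the 7 epithelial markers was 4510 and 5320 in the rescue, 3670 and 3790 in the KO, and 6670 and 6410 in wild type. The leukocyte markers Adgre1, Lyz2 and Cd3e, the acinar markers Prss1, Cpa1 and Amy2a1, and the fibroblast markers Dcn, Lum, Pdpn and Thy1 were at 0 in all 6 libraries. Other members of these lists were not: the leukocyte list summed to between 4.04 and 5.20 normalised CPM per library, most of it Cd68, and the acinar list to at most 2.06, nearly all of it Cela1. The endothelial list summed to 38.0 and 14.9 in the rescue, 16.0 and 30.7 in the KO, and 4.63 and 5.37 in wild type, mostly from Cdh5.

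MMPs are secreted or membrane-anchored zinc proteases that cut collagens and other matrix proteins. ADAMs are mostly membrane proteases that release the outer parts of growth factors, cytokines and receptors, and ADAMTS proteases are secreted enzymes that cut proteoglycans and procollagens. ADAMTSL proteins share the ADAMTS repeats but lack the protease domain, and TIMPs bind and block the active site of these proteases. Several MMP genes are classical targets of AP-1 and NF-kB, the transcription factors downstream of interleukin-1 and Toll-like receptor signalling, and in pancreatic tumours these proteases are known for matrix remodelling and growth factor release.

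The secreted MMPs Mmp13, Mmp3 and Mmp10 lie in a cluster on chromosome 9 (GRCm38), and the bases upstream of their starts are shown because these 3 genes had lower counts in the KO than in wild type and share a motif there. The upstream window of Adam8, another gene with a lower level in the KO, is shown as one with no match to any motif searched. The rule that chose sequences, the smallest adjusted p in the KO against wild type, gave Mmp10, Mmp13, Adam8, Adam23, Adamts9 and Adamtsl3. The AP-1 letters stood in the windows of 2 of these 6, Mmp10 and Mmp13, and the windows of Adam23, Adamts9 and Adamtsl3 are not printed. Mmp3 was outside the rule and was added after its values were seen. Each line gives the 250 bases before the RefSeq start (GRCm38.p6), 5′ to 3′ on the strand of the gene, with matches to the AP-1 letters TGANTCA in capitals. The windows are chr9:7502092-7502341 (plus strand) for Mmp10, chr9:7272264-7272513 (plus) for Mmp13, chr9:7445572-7445821 (plus) for Mmp3 and chr7:139992563-139992812 (minus) for Adam8.
Mmp10: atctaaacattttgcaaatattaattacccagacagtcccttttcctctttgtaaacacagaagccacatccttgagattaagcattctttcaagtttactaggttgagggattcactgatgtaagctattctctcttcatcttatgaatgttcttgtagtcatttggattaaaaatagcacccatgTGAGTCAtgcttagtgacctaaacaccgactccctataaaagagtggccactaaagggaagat
Mmp13: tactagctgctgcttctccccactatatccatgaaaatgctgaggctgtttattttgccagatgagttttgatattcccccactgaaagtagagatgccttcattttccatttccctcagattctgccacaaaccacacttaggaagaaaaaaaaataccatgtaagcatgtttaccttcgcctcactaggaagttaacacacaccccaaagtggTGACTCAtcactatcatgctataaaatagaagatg
Mmp3: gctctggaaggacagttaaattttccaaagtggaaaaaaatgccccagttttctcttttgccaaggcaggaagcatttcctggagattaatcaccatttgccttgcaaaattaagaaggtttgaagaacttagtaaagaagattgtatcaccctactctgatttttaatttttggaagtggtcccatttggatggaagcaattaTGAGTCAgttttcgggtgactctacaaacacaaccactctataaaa
Adam8: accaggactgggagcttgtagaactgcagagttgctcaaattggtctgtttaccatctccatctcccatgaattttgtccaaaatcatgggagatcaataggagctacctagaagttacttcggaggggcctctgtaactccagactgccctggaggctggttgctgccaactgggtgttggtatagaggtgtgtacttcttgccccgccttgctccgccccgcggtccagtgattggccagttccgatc

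The AP-1 letters began 63 bases before the start of Mmp10, 35 before Mmp13 and 46 before Mmp3. They were TGAGTCA in Mmp10 and Mmp3 and TGACTCA in Mmp13. Searched on both strands, these letters stood in 6.75% of 32851 mouse promoter windows of the same length and in 11 of the 57 windows of members (19.3%), which belonged to the 52 members with a RefSeq entry. Among the 23 expressed members with a window, 2 had a match, Mmp10 and Mmp13, beside the 6.75% of all windows. The expressed members Adam9, Adam12, Adamts4, Adamts6, Adamts7 and Adamts10 had no window to search. The other windows with a match belonged to Mmp12, Mmp1b, Mmp20 and Mmp7 of the same cluster and to Adam19, Adam20, Adam25 and Adam29. The G and C content was 37.2% in the window of Mmp10, 40.4% in that of Mmp13 and 37.6% in that of Mmp3, against a median of 52.4% over all windows. The NF-kB consensus matched 0 of the 57 member windows and 0.98% of all windows. The hypoxia core letters ACGTG or GCGTG matched 26 of the 57 (45.6%) and 38.6% of all. A match describes letters in a window and does not show binding, and the absence of one says nothing about a factor.

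Expression was narrow. A mean of at least 1 CPM over the 6 libraries, the level called expressed here, was reached by 29 of the 83 members: 9 ADAM, 7 ADAMTS, 6 MMP, 4 ADAMTSL and 3 TIMP genes. Of the other 54, 21 had 0 counts in every library, and Adam32, Mmp3, Mmp23, Mmp19 and Mmp15 alone reached 10 counts in any library. Just outside the limit were Mmp3 (0.694 CPM), Mmp23 (0.857) and Mmp19 (0.927), and just inside were Adam1a (1.07), Adamtsl2 (1.24) and Adam23 (1.27). Mmp2, a gelatinase of stromal cells, had at most 5 counts in a library. The count filter let 29 members into the test, which were 28 expressed members and Mmp3, and left out Adam1a. In 25 of the 29 expressed members every group mean was at least 1 CPM. Adam23, Adamtsl2, Mmp10 and Mmp24 were expressed on average but not in each group.

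Per kilobase of gene length, a few members made up most of each family. By the authors' RPKM averaged over the 6 libraries, the order began with Timp2 (112 RPKM), Adam9 (108), Mmp14 (80.1), Adam10 (55.1) and Timp1 (40.7), followed by Adamtsl4 (23.1) and Adam15 (21.0). Adam8 (12.8), Adam17 (12.1), Mmp11 (11.7) and Timp3 (10.8) came next, and those 4 levels lay close together. Mmp14 made up 70.9% to 85.4% of the summed MMP RPKM of a library, Adam9 44.6% to 55.9% of the ADAM sum, Adamtsl4 69.1% to 71.9% of the ADAMTSL sum and Timp2 58.9% to 76.1% of the TIMP sum. Among ADAMTS genes no member dominated, and Adamts1 held 15.3% to 25.3%. Summed ADAM RPKM was 190 and 209 in the rescue, 183 and 200 in the KO, and 252 and 250 in wild type, so the wild-type libraries were above all others. Summed MMP RPKM overlapped between rescue and KO and was a little higher in wild type, at 106 and 108, against 101 and 94.8 in the rescue and 93.8 and 101 in the KO.

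**Figure D1:**
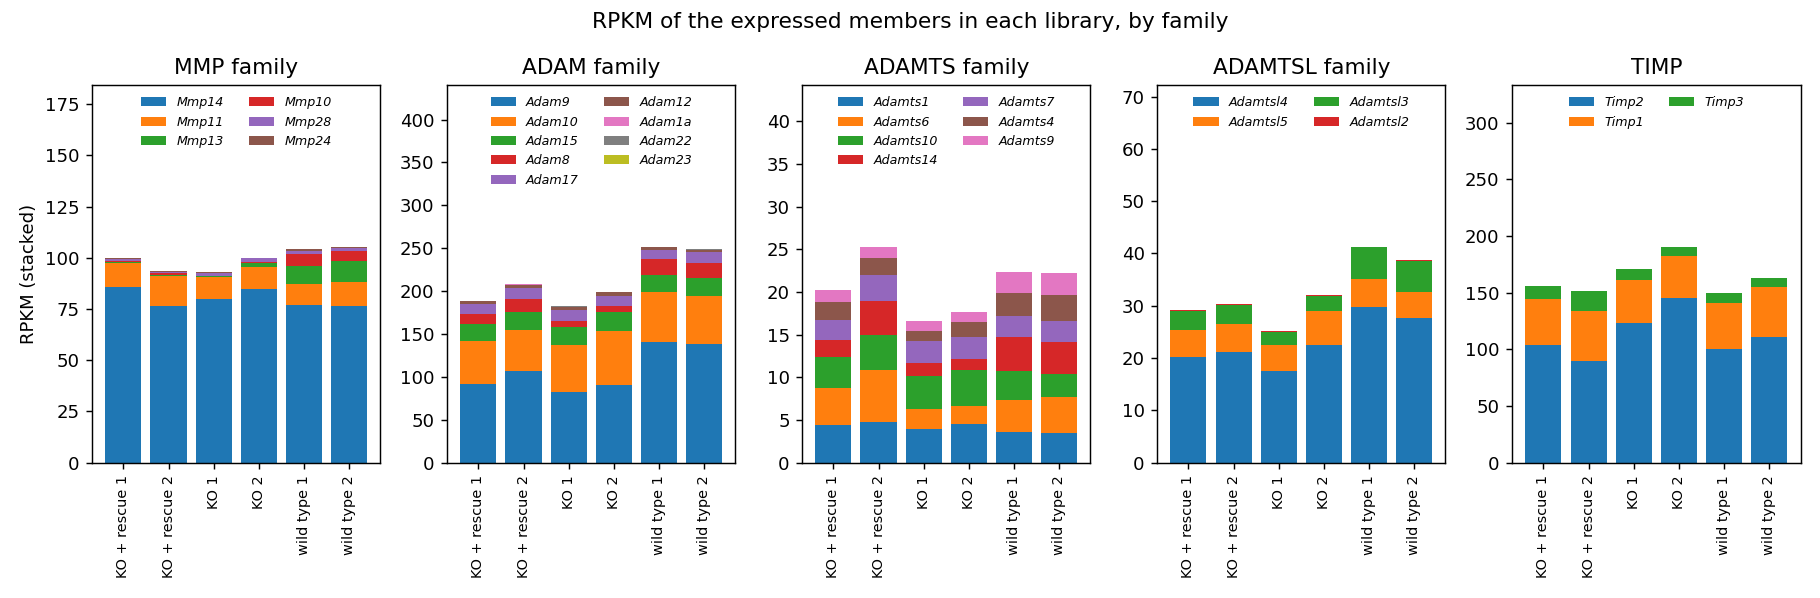
Stacked bars of the authors' RPKM (vertical axis) of each expressed member in each of the 6 libraries (rescue, KO and wild type from left to right), one panel per family. The bar of Mmp14 was 70.9% to 85.4% of the MMP total in every library, and the ADAM total was highest in the wild-type libraries, at 252 and 250 RPKM.

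The KO was set against wild type to ask which transcripts differ with loss of IRAK4. Of the 29 members tested, 14 were lower and 1 was higher in the KO (edgeR quasi-likelihood test, Benjamini-Hochberg adjusted p under 0.05), and 9 of the lower ones differed by at least 2-fold. Over all 12339 genes tested, 46.8% were called, 23.2% higher and 23.5% lower, with 7.64% lower and 3.70% higher by at least 2-fold. The share of members called, 51.7%, was close to the background of 46.8%, and the calls among members were nearly all in the direction of lower. The median log2 fold change was -0.31 over the members and 0.01 over all genes tested. Adam23, Mmp10 and Mmp3 reached 10 counts in the wild-type libraries alone and so entered the test through the group where they are high; the counts and medians over members describe those that passed the filter and are not support for a direction. Cell type markers moved in the same comparison. All 6 epithelial markers tested were lower in the KO, with log2 fold changes between -5.08 and -0.51 and a median of -0.92. The endothelial Cdh5 was higher (log2 fold change 2.77, SE 0.48, edgeR adjusted p = 0.00066) and Kdr lower (-3.875, edgeR adjusted p = 0.00094). The acinar Cela1 was higher (1.68, SE 0.47, edgeR adjusted p = 0.012). None of the 3 fibroblast markers or the 1 leukocyte marker tested was called. The part of these markers in the members' changes was not tested. In these bulk libraries, fewer cells expressing a gene and less RNA per cell cannot be told apart.

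**Figure D2:**
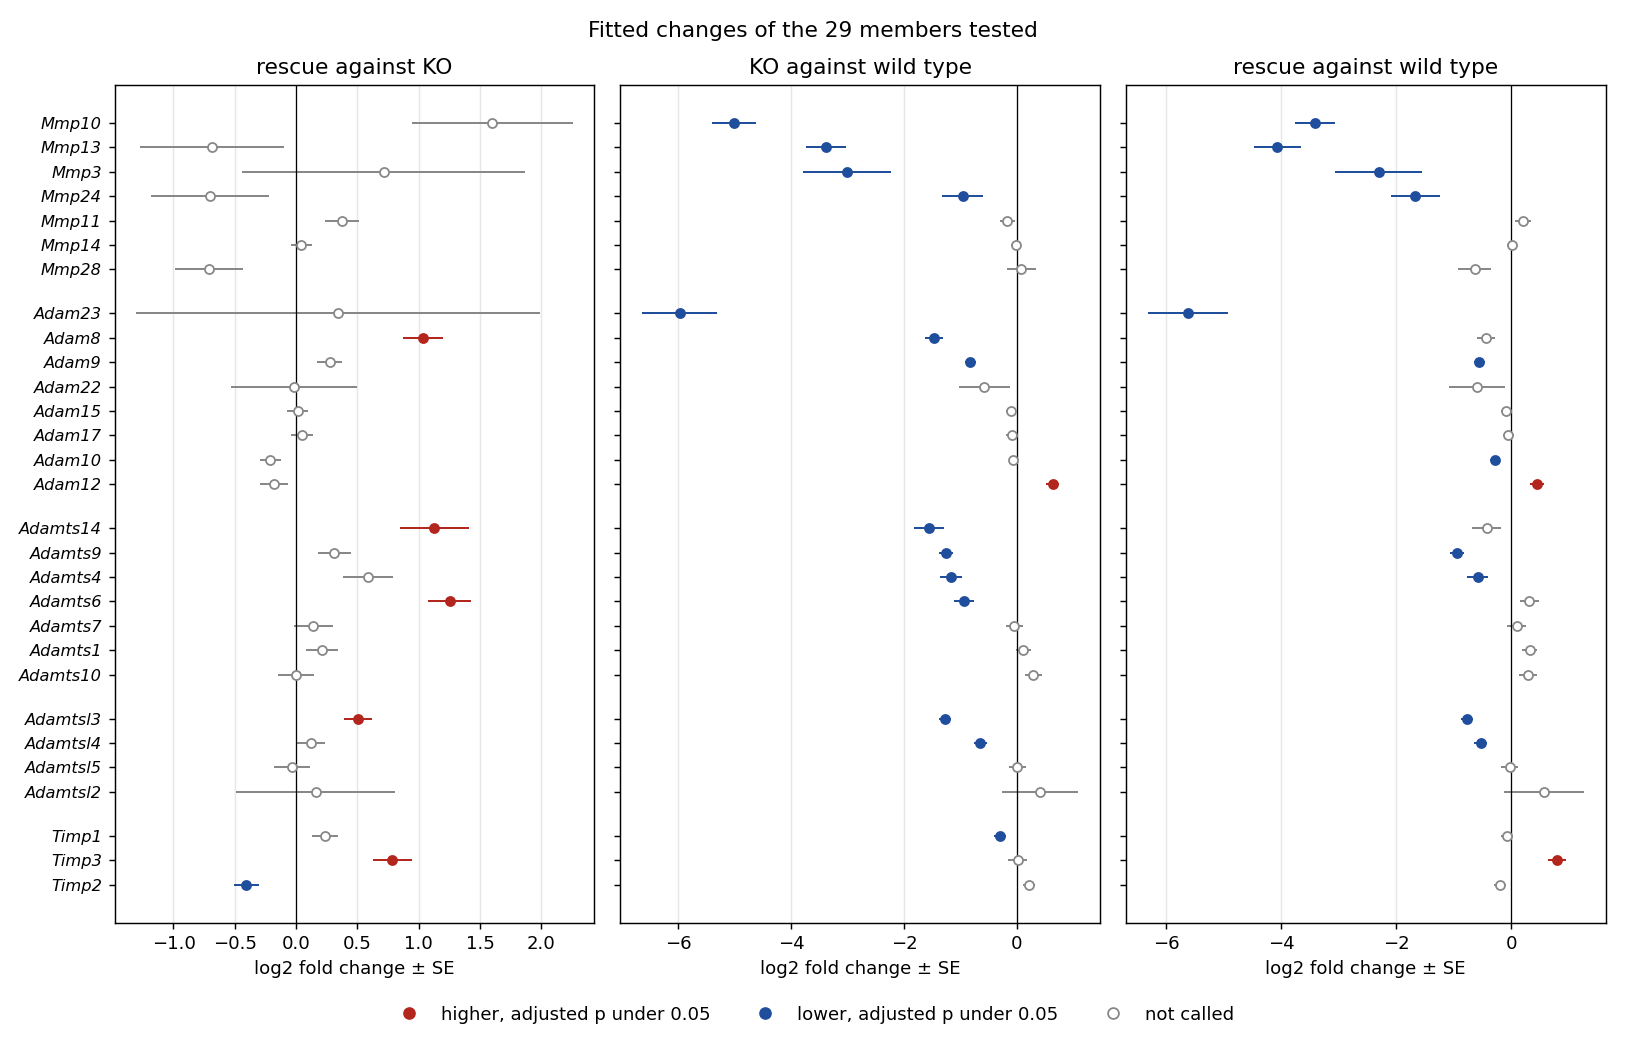
Fitted log2 fold change with its SE (horizontal axis) for the 29 members tested, grouped by family, in the rescue against the KO, the KO against wild type and the rescue against wild type. Filled points passed an adjusted p under 0.05; in the KO against wild type 14 filled points lie left of 0 and 1 lies right of it.

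Among the MMPs, 4 of the 7 tested (57.1%) were lower in the KO than in wild type, 3 of them by at least 2-fold. None was higher. Over all genes tested, 46.8% were called and 23.5% were lower, with 7.64% lower by at least 2-fold. Mmp10, a stromelysin that cuts proteoglycans and activates other MMPs (chromosome 9, 7502352 to 7510238), was at 0.761 and 1.07 normalised CPM in the rescue, 0.167 and 0.458 in the KO, and 11.04 and 8.70 in wild type. The wild-type libraries stood far above the rest, and no library of either other group came near them. The log2 fold change in the KO was -5.01 (SE 0.39, edgeR adjusted p = 3.7e-06), for a gene that passed the filter through wild type alone. Mmp13, the main collagenase of the mouse (chromosome 9, 7272514 to 7283333), was at 1.65 and 1.46 normalised CPM in the rescue, 1.00 and 4.47 in the KO, and 24.2 and 28.4 in wild type. The KO libraries differed more from each other than the rescue libraries did, but all 4 lay far below wild type. Its log2 fold change in the KO was -3.38 (SE 0.35, edgeR adjusted p = 2.7e-05).

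Mmp3, the stromelysin between them on the chromosome, had 0 and 5 counts in the rescue, 3 and 1 in the KO, and 11 and 20 in wild type. It passed the filter only through the wild-type group, where it is high, which favours a call in this direction. It was called lower in the KO (log2 fold change -3.01, SE 0.78, edgeR adjusted p = 0.0076). That call was lost without wild-type replicate 2 (adjusted p = 0.085) or without KO replicate 2 (adjusted p = 0.062). The cluster spans 7272514 to 7699585 of chromosome 9 and holds 10 genes with Mmp symbols, 9 of them members. Its 6 other members (Mmp12, Mmp1b, Mmp8, Mmp27, Mmp20 and Mmp7) had under 3 counts each over all libraries, so the reads of the cluster came from Mmp13 (570 counts), Mmp10 (202) and Mmp3 (40). Mmp3 and Mmp10 are close relatives, and how reads matching both were assigned is not given in the sources used here.

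The remaining expressed MMPs lie outside the cluster. Mmp14, the membrane-type enzyme that cuts collagen at the cell surface and activates pro-MMP2, was at 222 and 200.7 normalised CPM in the rescue, 200 and 210.1 in the KO, and 211 and 206 in wild type. The 3 groups overlapped, and the log2 fold change in the KO was -0.03 (SE 0.08, edgeR adjusted p = 0.82). Mmp11, also called stromelysin-3, was at 29.7 and 39.2 normalised CPM in the rescue, 26.2 and 26.8 in the KO, and 28.1 and 31.3 in wild type, with no call in this comparison (log2 fold change -0.17, SE 0.14). Mmp24, another membrane-type MMP, was at 0.888 and 0.932 normalised CPM in the rescue, 1.76 and 1.15 in the KO, and 3.56 and 2.34 in wild type. It was called lower in the KO (log2 fold change -0.96, SE 0.36, edgeR adjusted p = 0.048), and the call was lost when any of the KO or wild-type libraries was left out (adjusted p between 0.055 and 0.33) and under DESeq2 (adjusted p = 0.21). Mmp24 overlaps BC029722 on the opposite strand, and the strand setting of the counting is not given in the sources used here, so reads of the pair cannot be told apart. Mmp28, the last expressed MMP, averaged 3.82 normalised CPM in the rescue, 6.39 in the KO and 5.92 in wild type. It was not called in any comparison of the main fit. Mmp15, below the expression limit and not tested, had 4 counts in the rescue, 3 in the KO and 24 in wild type, a level 8.14-fold lower in the KO than in wild type (95% counting interval 2.47 to 42.2). Such ratios used summed counts over total counts, without TMM. They were taken only where the higher group had at least 10 counts and the lower group at most 3. A large fold is therefore built into the choice. Mmp23 and Mmp19 had between 5 and 13 counts in each library.

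**Figure D3:**
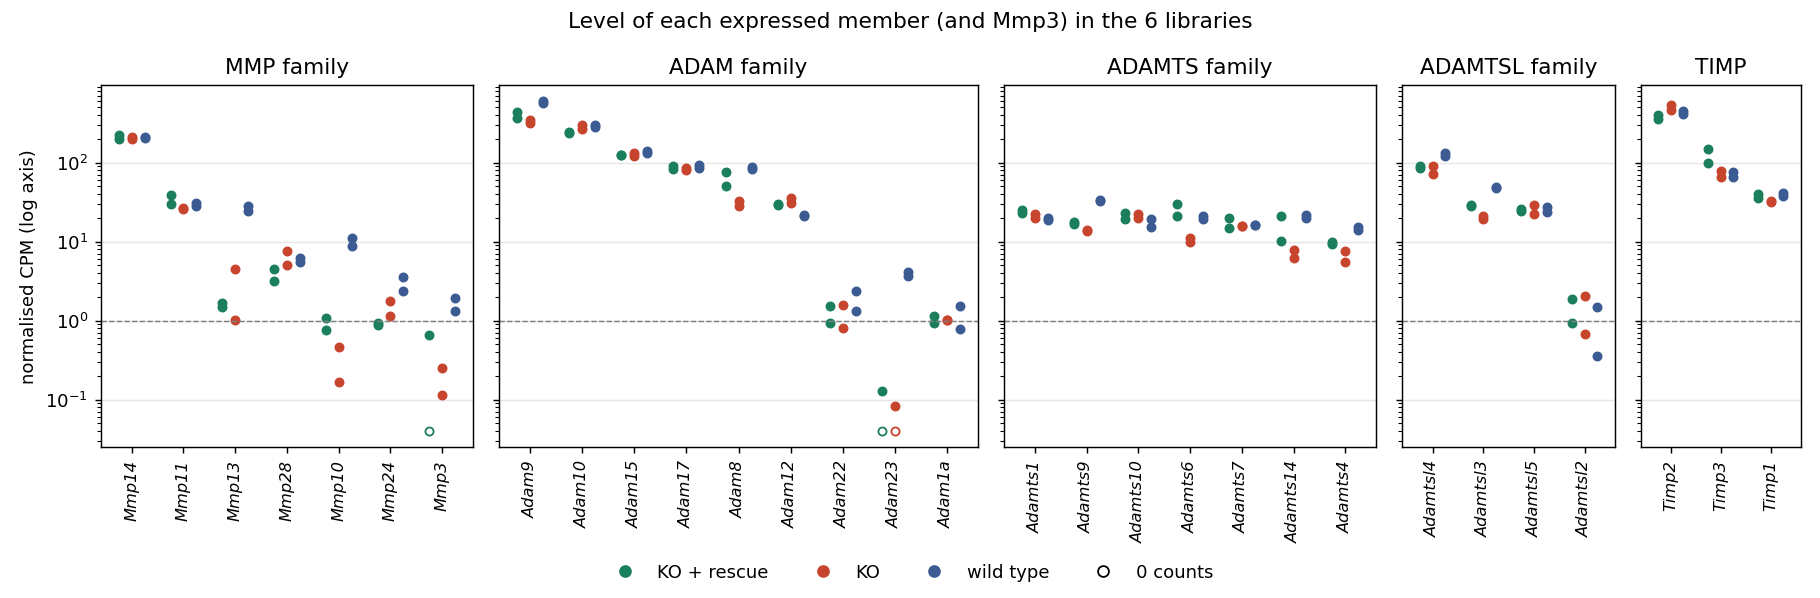
Normalised CPM (vertical log axis) of each expressed member and of Mmp3 in every library, by family, with rescue, KO and wild type from left to right for each gene. The dashed line marks 1 CPM and open points mark 0 counts; Mmp10 and Mmp13 stand at 8.70 to 28.4 in wild type and under 5 in the other libraries, while the groups overlap for Mmp14.

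Of the 8 ADAM genes tested, 3 were lower and 1 was higher in the KO than in wild type. The share called was 50%, against 46.8% of all genes tested. Adam23, a catalytically inactive ADAM that binds integrins and is best known in the nervous system (chromosome 1, 63445891 to 63596276), had 1 and 0 counts in the rescue libraries, 1 and 0 in the KO, and 35 and 37 in wild type. These were 0.127 and 0 normalised CPM in the rescue, 0.0836 and 0 in the KO, and 4.16 and 3.62 in wild type. By summed counts over total counts, without TMM, its level was 73.2-fold lower in the KO than in wild type (95% counting interval 12.7 to 2930). In the rescue it was 57.0-fold lower than in wild type on that scale (9.91 to 2280). These intervals cover counting error only. The edgeR adjusted p against wild type was 4.1e-05 for the KO and 2.0e-04 for the rescue, but Adam23 reached both the expression limit and the test only through the wild-type libraries, where it is high. Adam8, a sheddase of leukocytes and tumour cells that has been linked to pancreatic cancer invasion (chromosome 7, 139978932 to 139992562), was at 50.9 and 76.3 normalised CPM in the rescue, 33.1 and 28.5 in the KO, and 88.0 and 84.0 in wild type. None of the 3 groups overlapped. Its log2 fold change in the KO was -1.47 (SE 0.16, edgeR adjusted p = 3.0e-05).

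Adam9, the most abundant ADAM here and a widely expressed sheddase, was at 363 and 435 normalised CPM in the rescue, 315 and 346 in the KO, and 596 and 573 in wild type. All KO libraries lay below all wild-type libraries, and the log2 fold change was -0.82 (SE 0.10, edgeR adjusted p = 6.9e-05). Adam12, which exists as a membrane and a secreted form and cuts growth factor precursors, was the member that rose. It was at 29.5 and 29.4 normalised CPM in the rescue, 31.3 and 35.9 in the KO, and 21.7 and 21.4 in wild type, with a log2 fold change of 0.63 in the KO (SE 0.12, edgeR adjusted p = 0.00096). The best known sheddases were not called in the KO. Adam10, which cuts Notch receptors and cadherins, was at 245 and 238 normalised CPM in the rescue, 263 and 296 in the KO, and 299 and 284 in wild type (log2 fold change -0.06 in the KO, SE 0.09, edgeR adjusted p = 0.58). Adam17, which releases tumour necrosis factor and EGF receptor ligands, averaged 86.5 ± 6.49 normalised CPM in the rescue, 83.5 ± 4.34 in the KO and 89.2 ± 4.42 in wild type (SD, n = 2 each), with no call in any comparison. Adam15 was at 126 and 127 normalised CPM in the rescue, 120.0 and 131 in the KO, and 131 and 139.5 in wild type, also without a call. Adam22 and Adam1a stayed near 1 CPM: Adam22 averaged 1.23 in the rescue, 1.20 in the KO and 1.83 in wild type and was not called, and Adam1a averaged 1.04 in the rescue, 1.02 in the KO and 1.16 in wild type and was not tested.

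Of the 7 ADAMTS genes, all expressed and tested, 4 were lower and none was higher in the KO than in wild type. With 57.1% called, the family stood beside a share of 46.8% over all genes tested. Adamts9, which cuts versican and aggrecan, was at 17.5 and 16.8 normalised CPM in the rescue, 13.5 and 14.2 in the KO, and 32.4 and 33.7 in wild type. Replicates differed little in every group, and the log2 fold change in the KO was -1.26 (SE 0.12, edgeR adjusted p = 1.4e-05). Adamts14, a procollagen N-proteinase that trims fibrillar collagen precursors, was at 10.3 and 20.9 normalised CPM in the rescue, 7.86 and 6.19 in the KO, and 21.8 and 19.9 in wild type. The rescue libraries differed 2-fold from each other and reached into the wild-type range, while the KO lay below both (log2 fold change -1.55 in the KO against wild type, SE 0.27, edgeR adjusted p = 0.00065). Adamts4, an aggrecanase induced by interleukin-1 in cartilage, was at 10.0 and 9.46 normalised CPM in the rescue, 5.52 and 7.68 in the KO, and 13.9 and 15.2 in wild type (log2 fold change -1.17 in the KO, SE 0.19, edgeR adjusted p = 0.00043). Where a member overlaps a gene on the opposite strand, reads of the pair cannot be told apart here. This holds among others for Adam8 with Gm16201, Adam17 with Iah1, Adamts7 with Tbc1d2b and Timp3 with Syn3, and for Adam15, Adamts9 and Mmp28, which also overlap opposite-strand genes.

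Adamts6, a relative of Adamts10 with roles in microfibril assembly, was at 20.8 and 29.6 normalised CPM in the rescue, 11.1 and 9.86 in the KO, and 19.2 and 21.0 in wild type. The KO libraries were the low ones, and rescue and wild type overlapped. Its log2 fold change in the KO was -0.93 (SE 0.18, edgeR adjusted p = 0.0013). Adamts1, a versican-cutting enzyme, was at 23.3 and 25.4 normalised CPM in the rescue, 19.7 and 22.6 in the KO, and 20.1 and 19.0 in wild type. Adamts10, which binds fibrillin, was at 19.4 and 22.9 normalised CPM in the rescue, 20.1 and 22.3 in the KO, and 19.2 and 15.4 in wild type. Neither was called in any comparison, nor was Adamts7, which cuts cartilage oligomeric matrix protein and averaged 17.3 normalised CPM in the rescue, 15.7 in the KO and 16.2 in wild type. Adamts12, below the expression limit and not tested, had 1 count in the rescue, 0 in the KO and 18 in wild type. Against the floor of 3 counts over the group it was at least 6.1-fold lower in the KO than in wild type, and in the rescue it was 14.3-fold lower (95% counting interval 2.25 to 594). As for Mmp15, a large fold is built into the choice of these ratios.

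**Figure D4:**
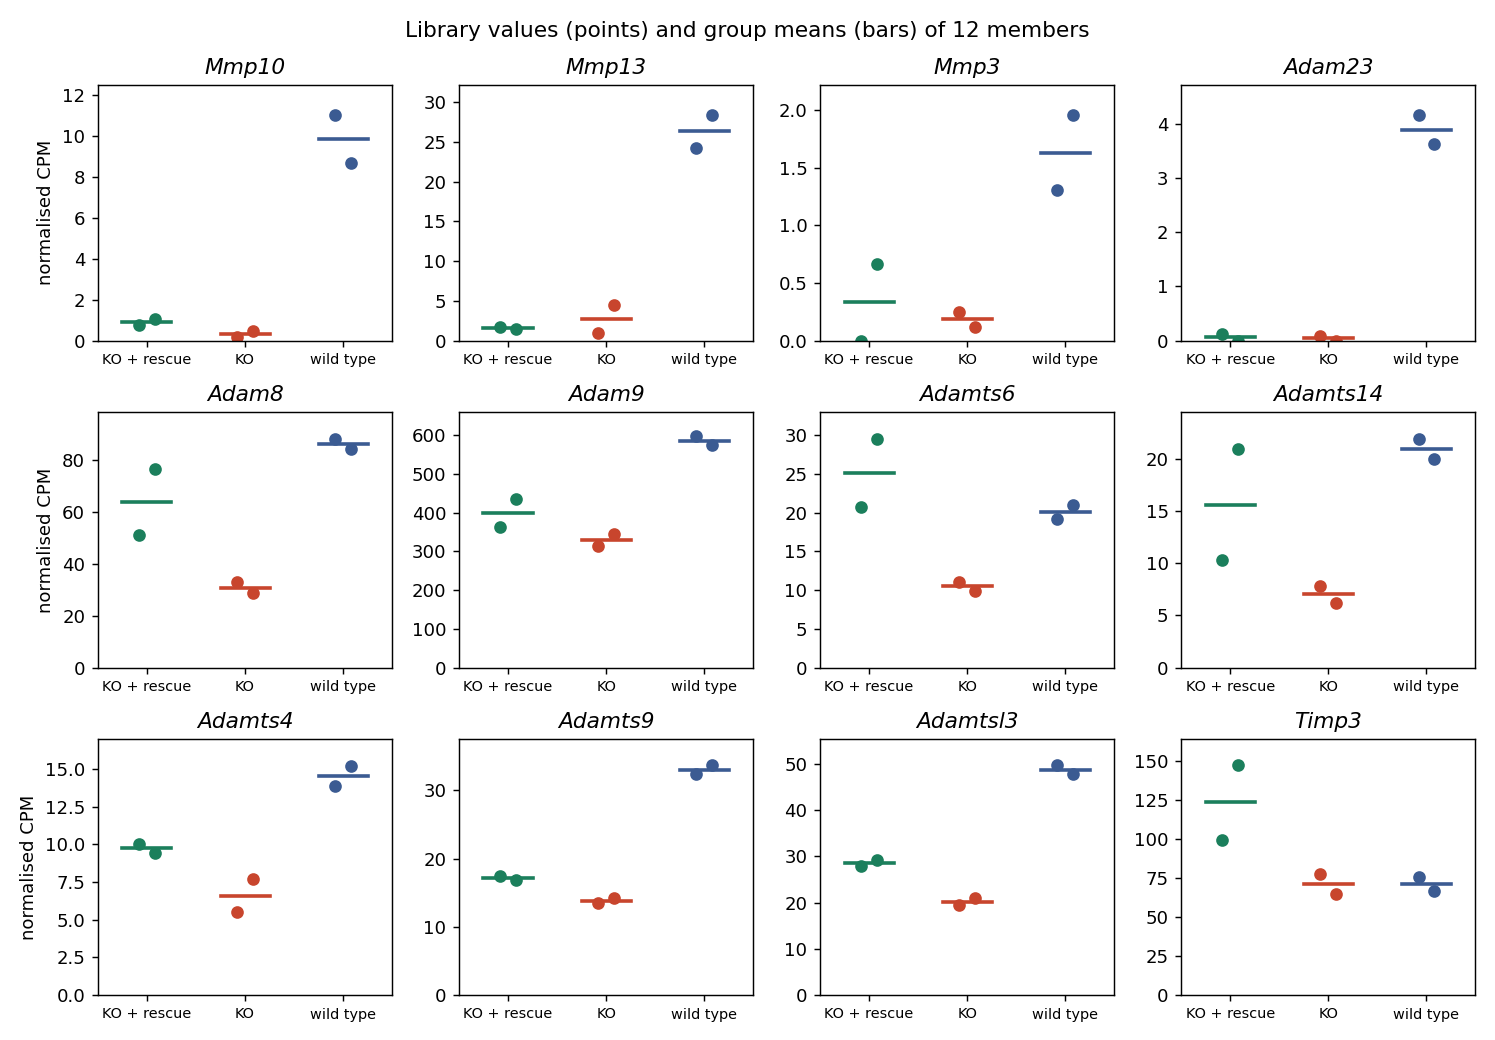
Normalised CPM (vertical axis, from 0) of 12 members in the rescue, KO and wild-type groups from left to right; points are libraries and bars are group means. Mmp10, Mmp13 and Adam23 are low in the rescue and the KO alike, whereas the Adam8, Adamts6 and Adamts14 means are higher in the rescue than in the KO.

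The ADAMTSL genes encode secreted matrix proteins without protease activity, and 2 of the 4 tested were lower in the KO than in wild type. That was 50% called, against 46.8% of all genes tested. Adamtsl3 (chromosome 7, 82335694 to 82614450) was at 27.9 and 29.3 normalised CPM in the rescue, 19.5 and 21.0 in the KO, and 49.8 and 47.8 in wild type. The 3 groups did not overlap, with the rescue between the others, and the log2 fold change in the KO was -1.27 (SE 0.11, edgeR adjusted p = 5.4e-06). Adamtsl4, a fibrillin-binding protein of the lens suspensory fibres and the most abundant member of its family, was at 84.5 and 89.8 normalised CPM in the rescue, 70.8 and 90.3 in the KO, and 131 and 120.5 in wild type. Rescue and KO overlapped below wild type (log2 fold change -0.65 in the KO, SE 0.11, edgeR adjusted p = 0.00068). Adamtsl5 was at 24.2 and 25.6 normalised CPM in the rescue, 22.3 and 29.1 in the KO, and 27.1 and 23.7 in wild type, with no call. Adamtsl2 averaged 1.42 in the rescue, 1.37 in the KO and 0.911 in wild type, again with no call.

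Of the 3 inhibitors tested, 1 was lower in the KO than in wild type, and 2 were not called. This share of 33.3% compares with 46.8% of all genes tested. Timp2, which blocks MMPs and also helps Mmp14 activate pro-MMP2, was at 401 and 353 normalised CPM in the rescue, 462 and 539 in the KO, and 412 and 449.5 in wild type. The KO libraries were the highest, but the KO was not called against wild type (log2 fold change 0.22, SE 0.10, edgeR adjusted p = 0.10). In a fit of only these groups it was called higher (0.21, edgeR adjusted p = 0.042). Timp1, an inhibitor induced by growth factors and cytokines, was at 35.3 and 40.0 normalised CPM in the rescue, 32.3 and 31.5 in the KO, and 38.0 and 40.9 in wild type. It was called lower in the KO (log2 fold change -0.31, SE 0.11, edgeR adjusted p = 0.032), and the call was lost when any KO or wild-type library was left out (adjusted p between 0.074 and 0.20) and under DESeq2 (adjusted p = 0.12). Timp3, the matrix-bound inhibitor that also blocks ADAM17 and ADAMTS proteases, was at 99.0 and 148 normalised CPM in the rescue, 77.6 and 64.9 in the KO, and 75.5 and 66.4 in wild type. KO and wild type overlapped (log2 fold change 0.01, SE 0.16, edgeR adjusted p = 0.96), and both rescue libraries were above them. Timp4 had 1 count in all.

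The rescue was set against the KO to ask which transcripts differ when IRAK4 is put back. Of the 29 members tested, 5 were higher and 1 was lower in the rescue, 3 of the higher ones by at least 2-fold. Over all genes tested 14.2% were called, 8.35% higher and 5.88% lower, with 1.67% higher by at least 2-fold and 2.33% so in either direction, and the share of members called was 20.7%. The median log2 fold change was 0.16 over the members and 0.00 over all genes. The count of higher members depended on single libraries, and so did the share of all genes called higher.

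Adamts6 had the largest rise among the members called (log2 fold change 1.25, SE 0.18, edgeR adjusted p = 0.0025), and it passed in every fit that left out a library. Adam8 rose as well (1.04, SE 0.16, edgeR adjusted p = 0.0033), with an adjusted p of 0.051 without KO replicate 2. Adamts14 rose by 1.13 on the log2 scale (SE 0.28, edgeR adjusted p = 0.024), but the call was lost without rescue replicate 2 (0.53, adjusted p = 0.19), without KO replicate 1 (adjusted p = 0.068), without KO replicate 2 (adjusted p = 0.15) and in a fit of only these groups (adjusted p = 0.052). Adamtsl3 rose by 0.50 (SE 0.11, edgeR adjusted p = 0.015), with an adjusted p of 0.10 without KO replicate 1 and 0.080 without KO replicate 2. Timp3 rose by 0.79 (SE 0.16, edgeR adjusted p = 0.010), with an adjusted p of 0.11 without KO replicate 2. Timp2 was the member that fell, with a log2 fold change of -0.41 (SE 0.10, edgeR adjusted p = 0.023); the call was lost without KO replicate 2 (adjusted p = 0.20), rescue replicate 2 (0.078) or wild-type replicate 2 (0.050), and in a fit of only these groups (0.050). Beside these, the summed fibroblast markers, mostly Col1a1, were at 18.5 and 23.8 normalised CPM in the rescue, 14.8 and 9.97 in the KO, and 13.5 and 13.2 in wild type, with 1 of the 3 tested called higher in the rescue than in the KO; their part in these results was not tested.

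In the main fit, none of the 7 MMPs tested was called in the rescue against the KO, where 14.2% of all genes tested were. Mmp10 had a log2 fold change of 1.60 (SE 0.66, edgeR adjusted p = 0.12), from 14 counts in the rescue and 6 in the KO, which leaves the difference poorly determined. Mmp13 had a log2 fold change of -0.69 (SE 0.59, edgeR adjusted p = 0.47) that depended on the KO library used. It was -1.51 without KO replicate 1 and 0.62 without KO replicate 2. Adamts9 (0.31, SE 0.13, edgeR adjusted p = 0.13), Adamts4 (0.58, SE 0.20, edgeR adjusted p = 0.076) and Adam9 (0.27, SE 0.10, edgeR adjusted p = 0.089) were above the KO in both rescue libraries without passing the test. With no filter, Adam9 and Adamts4 were called higher (edgeR adjusted p = 0.0345 and 0.0407) and Mmp28 was called lower (edgeR adjusted p = 0.0377). Without rescue replicate 1 the log2 fold change was 0.40 for Adam9, 0.56 for Mmp11 and -0.97 for Mmp28. That fit holds no replicate spread for the rescue.

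Set against wild type, the rescue had 11 lower and 2 higher members of 29, 5 of the lower ones by at least 2-fold. Over all genes tested 22.2% were called, 10.2% higher and 12.0% lower, with 3.82% lower and 2.07% higher by at least 2-fold, against 44.8% of the members. The median log2 fold change was -0.27 over the members and 0.01 over all genes. Adam23, Mmp10 and Mmp3 entered this test only through the wild-type libraries, where they are high. The counts and medians over members describe those that passed the filter and are not support for a direction. This comparison and the KO against wild type share the wild-type libraries, so their calls are not independent of each other. The number lower depended on single libraries, and so did the share of all genes called lower. Of the markers, 4 of the 6 epithelial ones tested were lower in the rescue than in wild type, among them Cdh1 (log2 fold change -1.66, SE 0.16, edgeR adjusted p = 3.0e-05). The 6 had log2 fold changes between -4.74 and -0.21. The fibroblast marker Acta2 was higher (1.58, SE 0.50, edgeR adjusted p = 0.043), as was Cdh5 (2.98, SE 0.48, edgeR adjusted p = 0.0011), and Kdr was lower (-4.36, edgeR adjusted p = 0.0033). Their part in the members' changes was not tested.

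The MMPs of the cluster were low in the rescue relative to wild type. Mmp13 had a log2 fold change of -4.07 (SE 0.41, edgeR adjusted p = 4.0e-05) and Mmp10 one of -3.41 (SE 0.34, edgeR adjusted p = 3.7e-05). Mmp10 and Mmp3 entered the test only through the wild-type libraries, where they are high, which favours a call in this direction. Mmp3 (-2.30, SE 0.76, edgeR adjusted p = 0.049) passed narrowly, and lost its call in 5 of the 6 fits that left out a library. Mmp24 was also lower (-1.66, SE 0.43, edgeR adjusted p = 0.017), though not without wild-type replicate 1 (adjusted p = 0.17) or rescue replicate 1 (adjusted p = 0.058). Adamts9 (-0.95, SE 0.12, edgeR adjusted p = 2.4e-04), Adamtsl3 (-0.77, SE 0.10, edgeR adjusted p = 3.6e-04), Adam9 (-0.55, SE 0.10, edgeR adjusted p = 0.0024) and Adamtsl4 (-0.53, SE 0.11, edgeR adjusted p = 0.0063) were lower by smaller amounts. Adamtsl4 lost its call without wild-type replicate 1 (adjusted p = 0.080).

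Adamts4 (-0.58, SE 0.18) and Adam10 (-0.27, SE 0.09) were each called lower with an edgeR adjusted p of 0.042, and each lost the call when either wild-type library or rescue replicate 2 was left out (adjusted p between 0.065 and 0.26). Adam10 lost it also without KO replicate 1 (adjusted p = 0.050). Under DESeq2, Mmp3, Mmp24, Adamts4 and Adam12 lost their calls in this comparison (adjusted p between 0.080 and 0.18). The 2 members higher in the rescue than in wild type were Timp3 (log2 fold change 0.80, SE 0.16, edgeR adjusted p = 0.0046) and Adam12 (0.45, SE 0.12, edgeR adjusted p = 0.020). Timp3 lost the call without wild-type replicate 2 (adjusted p = 0.064), and Adam12 without wild-type replicate 1 or 2 (adjusted p = 0.11 for each). Adam8 (-0.44, SE 0.15, edgeR adjusted p = 0.058), Adamts14 (-0.43, SE 0.25, edgeR adjusted p = 0.25) and Adamts6 (0.32, SE 0.17, edgeR adjusted p = 0.20) did not pass, which does not show that they were at the wild-type level. With no filter, Adam8 was called lower (edgeR adjusted p = 0.0011). Adam8, Adamts14 and Adamts6 all depended on the rescue library. Without rescue replicate 2 the log2 fold change was -0.76 for Adam8 and -1.02 for Adamts14, and without rescue replicate 1 it was 0.54 for Adamts6. Mmp11 was at 0.39 without rescue replicate 1. A fit with 1 rescue library holds no replicate spread for that group.

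Genes that control these proteases were taken as a list of 19, of which 13 were tested. In the KO against wild type 5 were lower and 1 was higher, which is 46.2% called, against 46.8% of all genes tested, with a median log2 fold change of -0.25 against 0.01. Bsg, also called EMMPRIN, a surface glycoprotein known to induce MMPs, was at 1025 and 1552 normalised CPM in the rescue, 710.5 and 741 in the KO, and 2007 and 1731 in wild type (log2 fold change -1.36 in the KO, SE 0.16, edgeR adjusted p = 5.2e-05). Lrp1, an endocytic receptor that clears MMPs and TIMPs, was at 122 and 261 normalised CPM in the rescue, 95.9 and 90.5 in the KO, and 389 and 281 in wild type (-1.84 in the KO, SE 0.26, edgeR adjusted p = 2.0e-04). Both KO libraries were below every wild-type library for these genes, and Bsg and Lrp1 were called higher in the rescue than in the KO (0.83 and 1.04). Tspan14, a tetraspanin partner of ADAM10, and Rhbdf2, an iRhom needed for ADAM17 maturation, were lower in the KO by smaller amounts (-0.69, SE 0.08, edgeR adjusted p = 6.6e-05 and -0.75, SE 0.10, edgeR adjusted p = 1.7e-04). The list counts were 2 higher and 1 lower in the rescue against the KO (23.1% called, against 14.2% of all genes tested), and 1 higher and 7 lower in the rescue against wild type (61.5%, against 22.2%).

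Known substrates of ADAM and ADAMTS proteases formed a list of 31, of which 26 were tested. In the KO 19 were lower and 1 was higher than in wild type, which is 76.9% called, against 46.8% of all genes tested, with a median log2 fold change of -0.56 against 0.01 over all genes. Hbegf, an EGF receptor ligand released by ADAMs, was at 180.5 and 275 normalised CPM in the rescue, 95.8 and 81.5 in the KO, and 328 and 298 in wild type (log2 fold change -1.82 in the KO, SE 0.16, edgeR adjusted p = 9.6e-06). Tgfa, another such ligand, was at 65.8 and 87.5 normalised CPM in the rescue, 52.8 and 53.6 in the KO, and 128 and 114 in wild type (-1.18, SE 0.12, edgeR adjusted p = 2.6e-05). Both ligands were called higher in the rescue than in the KO, Hbegf by 1.36 (SE 0.16) and Tgfa by 0.53 (SE 0.13). Vcam1, a leukocyte adhesion molecule shed by ADAM17, was at 31.2 and 19.7 normalised CPM in the rescue, 39.7 and 46.5 in the KO, and 134 and 144 in wild type (-1.69 in the KO, SE 0.15, edgeR adjusted p = 7.6e-06). Cx3cl1, a membrane-bound chemokine, was at 14.2 and 11.1 normalised CPM in the rescue, 17.0 and 18.1 in the KO, and 41.8 and 41.5 in wild type (-1.25 in the KO, SE 0.13, edgeR adjusted p = 2.1e-05). For Vcam1 and Cx3cl1 the rescue libraries lay below the KO libraries, and Vcam1 was called lower in the rescue than in the KO (-0.75, SE 0.17, edgeR adjusted p = 0.016). Over the list, 5 were higher and 2 lower in the rescue against the KO (26.9% called, against 14.2% of all genes tested), and 1 was higher and 16 lower in the rescue against wild type (65.4%, against 22.2%).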

How the data were processed

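RNA-seq libraries of rescue, KO and wild-type KP2 cells were analysed from the authors' gene tables. Per the labels' protocols, RNA was prepared with Trizol and mRNA was selected with oligo-dT. The submitters' processing notes name bcl2fastq, STAR 2.0.4b, Subread, featureCounts 1.45 and the build GRCm38; for the annotation release and strand setting, the sources used here give nothing. Each deposited table lists gene counts with CPM and RPKM, per the file headers; the authors' CPM was checked to be the count over the table's total, and their deposited RPKM to be CPM divided by the listed gene length in kilobases. Counts were tested, and the authors' RPKM served to compare levels between members.

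Symbols and biotypes came from GENCODE M21, and promoter sequences from RefSeq (GRCm38.p6). Mmp1a was left out as it is annotated as a pseudogene. Counts were tested with edgeR 4.0.16 in R 4.3.3 (filterByExpr with a minimum count of 10 and a minimum total of 15, TMM, quasi-likelihood test), fitted to all 6 libraries with 3 residual degrees of freedom. This kept 12339 genes, over which p-values were adjusted by Benjamini-Hochberg, with calls under 0.05. SE was obtained as the absolute log2 fold change over the root of F. One overlap between a member and an opposite-strand gene is not reported here. Replicates of each group differed by more than sampling noise. Ratios with 1 to 3 counts have exact 95% intervals, and a count of 0 was set to a floor of 3 counts over the group. Both kinds of ratio used summed counts over total counts, without TMM. Both cover counting error only. They were computed only where the higher group had at least 10 counts and the lower group at most 3, which selects large folds.

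The members, gene lists and motifs were chosen with earlier results of these data known. Every expressed member is named; library values are given for members called with at least a 2-fold change, for the 3 highest by RPKM of each protease family and for each TIMP. Alternatives were DESeq2 1.42.0 and its size factors, other filters, a replicate block, only the groups compared, a test against 1.5-fold and leaving out each library. The test was run on simulated counts with known changes. With gene-wise dispersions, more of its calls were unchanged genes than the nominal 5% in each comparison, and a simulation with trended dispersions, added after that was seen, came nearer to it, still above it for the KO against wild type. Calls with an adjusted p just under 0.05 are therefore less secure than the threshold states.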

Additional observations from a re-analysis of the deposited data

How the results depend on the processing

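In the KO against wild type, the 14 lower members became 12 under DESeq2, 11 of 24 tested with the stricter filter and 10 against 1.5-fold. The share of all genes called lower was 23.5% in the main fit, and 19%, 25% and 7.51% in these fits. The 1 higher member became 0 against 1.5-fold and 2 of 32 tested in the fit of only the groups compared. The share of all genes called higher was 23.2% in the main fit, and 3.88% and 26.3% in these fits. In the rescue against the KO, the 5 higher became 7 of 62 tested with no filter and 0 against 1.5-fold. The share of all genes called higher was 8.35% in the main fit, and 5.98% and 0.195% in these fits. The 1 lower became 2 with no filter, 0 against 1.5-fold and 0 of 25 tested in the fit of only the groups compared. The share of all genes called lower was 5.88% in the main fit, and 4.78%, 0.113% and 3.17% in these fits. Both counts and both shares also changed with libraries left out. In the rescue against wild type, the 2 higher became 1 under DESeq2, 0 against 1.5-fold and 0 to 4 with libraries left out; the 11 lower became 4 against 1.5-fold and 6 to 11 with libraries left out. A test against 1.5-fold asks for a larger change by construction; for the others the cause was not tested.

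Changes of sign were all among members without a call in the comparison concerned. In the KO against wild type, Adamtsl5 was -0.0049 with DESeq2 size factors, -0.0013 under DESeq2, -0.0079 with the stricter filter and -0.00066 in the fit of only the groups compared, and Timp3 was -0.0021, -0.0060 and -0.0057 under the first 3 of these. In the rescue against the KO, Adam22 was 0.022 under DESeq2, and Adamts10 was -0.0069 with no filter and -0.0012 with the replicate block. With single libraries left out, ranges that crossed 0 in the KO against wild type were Adam10 -0.15 to 0.012, Adamtsl5 -0.18 to 0.19, Adamtsl2 -0.50 to 1.81, Mmp14 -0.062 to 0.00042, Mmp28 -0.22 to 0.36 and Timp3 -0.14 to 0.13. In the rescue against the KO they were Adam15 -0.045 to 0.071, Adam17 -0.031 to 0.12, Adam22 -0.41 to 0.61, Adam23 -2.21 to 2.44, Adamts10 -0.12 to 0.12, Adamts7 -0.082 to 0.34, Adamtsl4 -0.048 to 0.29, Adamtsl5 -0.22 to 0.15, Adamtsl2 -0.52 to 1.07, Mmp14 -0.031 to 0.11, Mmp13 -1.51 to 0.62 and Mmp3 -3.96 to 1.72. In the rescue against wild type they were Adam17 -0.12 to 0.022, Adamts7 -0.13 to 0.29, Adamtsl5 -0.12 to 0.068, Adamtsl2 -0.042 to 1.96, Mmp14 -0.062 to 0.088, Mmp11 -0.0045 to 0.39 and Timp1 -0.16 to 0.0085.

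Deviations of same-numbered replicates correlated at -0.19 between rescue and KO, -0.15 between rescue and wild type and 0.04 between KO and wild type. These values gave no sign that equal numbers mark paired libraries. They cannot exclude pairing, as a small shared effect could go unseen in them. Under the replicate block, members called lower against wild type numbered 13 for the KO and 8 for the rescue. With 2 libraries per group and totals of 7605328 to 11505983 counts, members near 1 CPM rest on about 10 counts a library, and small differences in them were not detectable at this depth.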
